A study of Mus musculus with 4 samples.

Results

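The genes for collagen chains, laminin chains and integrin subunits were followed in 4 kinds of islet cell of mice with and without Sel1L in beta cells. Gene symbols chose the members: those starting with Col, a number, a and a number, those starting with Lama, Lamb or Lamc and a number, and those starting with Itga or Itgb. The 4 count tables list 19074 genes, of which 83 are members: 42 collagen chains, 11 laminin chains, 25 integrin subunits (17 alpha and 8 beta) and 5 genes whose symbols match but which encode neither chains nor subunits (Col4a3bp, Itgb1bp1, Itgb1bp2, Itgb3bp and Itgbl1). The samples are 4 single-cell libraries of pancreatic islets from C57BL/6 mice. Wild type here means mice with floxed Sel1L alleles and no Cre (2 libraries), and knockout means mice that also carry Ins1-Cre, which is expressed in insulin-producing beta cells (2 libraries). All islets rested overnight in culture after isolation and were then dissociated with trypsin. On age the sources differ, with 7 weeks in the labels of the samples and 5 weeks in the description of the series. No mice with Ins1-Cre and intact Sel1L were analysed here, so effects of Cre and of the Sel1L deletion cannot be told apart. Nothing states that the 2 libraries of a genotype came from separate mice, so p-values measure the spread between these libraries, which may be technical.

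Collagens and laminins build the matrix around cells, and integrins are the cell surface receptors that bind it. Collagen IV and laminins form basement membranes, the thin sheets beneath blood vessel linings. Each collagen IV or laminin molecule is a trimer of chains. In mouse islets the beta cells contact a basement membrane laid down by the capillary endothelium. An integrin is a pair of 1 alpha and 1 beta subunit, and the beta 1 subunit (Itgb1) pairs with most alpha subunits that bind collagen or laminin. These proteins fold and assemble in the endoplasmic reticulum (ER), where Sel1L is the partner of the ubiquitin ligase Hrd1 in the disposal of misfolded proteins. Trypsin cuts surface proteins and matrix, but the values below are transcripts.

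Wild type libraries held 5951 and 5841 cells and knockout libraries 4337 and 2483 cells, with 99156230 to 228515309 unique molecular identifiers (UMIs, counted transcripts) each. Removal of doublet calls left 5668, 5568, 4187 and 2434 cells. Pairs of libraries shared 1 to 9 cell barcodes. Beta cells (Ins1 plus Ins2 at least 10% of UMIs) numbered 3559, 3489, 2408 and 1372. Alpha cells (Gcg at least 3% and insulin under 5%) numbered 1115, 944, 760 and 333, endothelial cells (Pecam1 and Cdh5 detected, insulin under 10%) 152, 172, 153 and 157, and stromal cells (Pdgfrb detected, Pecam1 at 0, insulin under 10%) 30, 36, 56 and 46. Hormone transcripts took 73.2% and 74.2% of the UMIs of wild type beta cells and 50.3% and 51.9% of those of knockout beta cells. Levels are therefore given as CPM: the UMIs of a gene in a class per 1000000 UMIs of that class in the library, after 8 hormone transcripts were left out of the total. The libraries capture the 3′ end, so 1 UMI is 1 transcript whatever its length, and CPM can be compared between genes as captured transcripts. Knockout beta cells held more non-hormone UMIs per cell, with medians of 12220 and 12590 for wild type against 21770 and 24010 for knockout libraries. Scaling by cell number in place of TMM (edgeR's library scaling) moved the median gene by 0.92 in beta, 0.79 in alpha, 0.72 in endothelial and 0.58 in stromal cells on the log2 scale, and changes below are relative to that median. The median mitochondrial share of beta cells was 1.72% and 1.69% (wild type) against 3.64% and 3.58% (knockout). Sel1l itself stood at 126.4 and 125.5 CPM in beta cells of the wild type against 87.2 and 92.2 CPM in those of the knockout (log2 -0.52, SE 0.061, edgeR adjusted p = 0.00122), and at 30.8 and 34.7 against 42.4 and 43.2 CPM in alpha cells (adjusted p = 0.064). The labels do not name the floxed exons, so this 3′ level tests the genotype only in part.

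The classes were checked against their markers. All 8 endothelial markers were read in every library of the endothelial class, summing to 13580 to 15110 CPM, and all 8 stromal and pericyte markers in the stromal class, summing to 2687 to 4667 CPM. Pecam1, Cdh5 and Pdgfrb are among these markers and define the classes, so their detection was set by the rule. The 8 endothelial markers were also read in every beta and alpha library, but summed to only 11.9 to 67.2 CPM there. The endothelial class also held Pdgfrb, a pericyte gene, at 163 to 248 CPM. The stromal class of knockout library 2 held Ppy and Pyy at 9231 CPM in sum and delta cell markers at 5938 CPM, and the stromal classes of wild type library 2 and knockout library 2 held leukocyte markers at 732 and 826 CPM. Transcripts that mark other cells were therefore read in the classes. Whether mixed droplets or misplaced cells held these transcripts was not tested. Beside results that such transcripts may affect, values are given for marker-free cells. These are cells with no Ptprc UMI (a leukocyte gene) and fewer than 2 UMIs in all of the defining markers of each other class. Marker-free endothelial and stromal cells were also under 3% in each islet hormone.

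Col4a1, Col4a2 and Lama4 were read mainly in endothelial cells, and among members the endocrine cells held mainly integrins. Some collagens were read mainly in endocrine cells. These included Col26a1 in alpha cells (83.8% to 98.1% of its UMIs) and, in beta cells, Col6a6 and, in wild type libraries only, Col6a3. In endothelial cells the highest member was Col4a1, which encodes the alpha 1 chain of collagen IV, at 2215 and 2022 CPM in wild type libraries against 2654 and 2660.5 CPM in knockout libraries. Col4a2, its usual partner chain, stood at 1547 and 1370.1 CPM in wild type libraries against 1766 and 1814 CPM in knockout libraries. The highest laminin was Lamb1, the beta 1 chain, at 448 to 538 CPM. Lamc1 (gamma 1) ran from 245 to 271 CPM and Lama4 (alpha 4, the alpha chain of vascular laminins) from 138 to 146 CPM. The transmembrane collagen Col13a1 stood at 783, 891, 653 and 586 CPM in wild type 1, wild type 2, knockout 1 and knockout 2. The share of all Col13a1 UMIs of a library that lay in the endothelial class was 95% and 97% in wild type libraries against 94.9% and 97.7% in knockout libraries.

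Stromal cells added the fibrillar collagens, which make the fibres of interstitial matrix. Col3a1 ran from 652 to 844 CPM, Col1a1 from 429.6 to 612 CPM and Col1a2 from 326 to 409.8 CPM. The collagen VI chains Col6a1, Col6a2 and Col6a3 were read at 159, 126, 339 and 197 CPM, at 163, 115, 213 and 161 CPM and at 174, 137, 231 and 194 CPM in the same order of libraries. The stromal class held 30.6% to 52.8% of the Col1a1 UMIs and 20.9% to 44% of the Col3a1 UMIs of a library. Cells placed in no class held 34.5% to 61.7% and 29.6% to 62.6%.

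Beta cells held few matrix transcripts. Their highest member by mean over libraries was Itgb1 at 149.5, 149, 129 and 121 CPM, followed by the laminin-binding subunit Itga6 at 57.6, 61.9, 126 and 127 CPM and the subunit Itgav, which binds matrix proteins with an RGD motif, at 99.9, 112, 58.5 and 67.1 CPM. In knockout library 2 Itga6 lay above Itgb1. Col6a6, a collagen VI chain, stood at 45.5, 36.4, 31.8 and 7.71 CPM. It was the highest collagen of beta cells in 3 of the 4 libraries, and in knockout library 2 Col4a1 was above it (14.3, 13.3, 13.6 and 15.1 CPM). The laminin chain Lamc1 was read at 6.76, 8.03, 8.37 and 8.79 CPM. Between 93.5% and 97.3% of all Col6a6 UMIs of a library lay in beta cells. In alpha cells Itgb1 stood at 187, 192, 170.2 and 175 CPM, the fibrillar chain Col27a1 at 20.3, 22.6, 23.8 and 37 CPM and Lamc1 at 9.40, 9.0, 12.3 and 15.9 CPM. The levels of Itgb1 in endothelial (558 to 751 CPM) and stromal cells (552 to 645 CPM) overlapped.

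**Figure D1:**
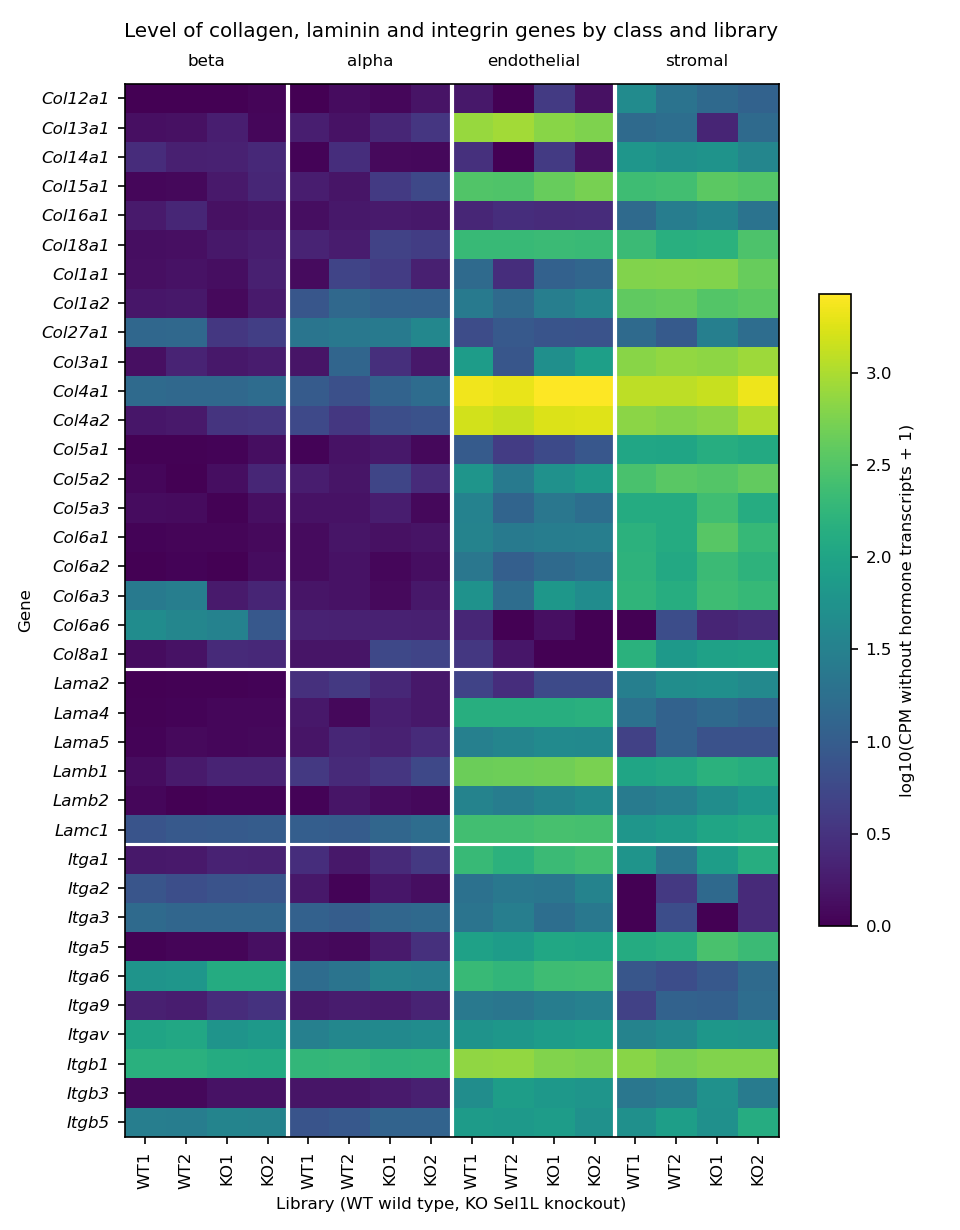
Levels of the 36 members with a mean of at least 20 CPM in at least 1 class (20 collagens, 6 laminins and 10 integrins), in rows, for the 4 libraries of each class, in columns. Colour gives CPM without hormone transcripts on a log scale. Collagen IV and Lamb1 are high in the endothelial columns, fibrillar collagens in the stromal columns, and Col6a6 in the beta columns, where knockout library 2 is the lowest at 7.71 CPM.

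Endothelial and stromal cells differed in most of the members that could be compared. Of 37 members that passed the filter on low counts, 15 were higher in endothelial cells and 15 higher in stromal cells by edgeR with library as a block and an adjusted p under 0.05. Over all 8405 genes tested, 54.9% differed, 28.7% being higher in endothelial cells and 26.3% lower. All 6 fibrillar collagens tested and all 3 collagen VI chains tested were higher in stromal cells. Collagen IV (2 of 2), laminin-binding integrins (2 of 2) and collagen-binding integrins (2 of 2) were higher in endothelial cells, as were 5 of 7 laminin chains, while neither of the 2 multiplexins tested was called. Col4a1 was also high in stromal cells, at 1206, 1205, 1353 and 2156 CPM, above Col3a1 in each library. The median difference of the 37 members was -0.044 on the log2 scale.

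The largest endothelial excess among members read in both classes was that of Col13a1, at 14.5, 16.4, 1.27 and 14.2 CPM in the stromal class, a log2 difference of 5.96 (SE 0.293, edgeR adjusted p = 2.37e-08). Itga6 stood at 200.2, 178, 229 and 236 CPM in endothelial and 7.24, 5.46, 7.64 and 14.2 CPM in stromal cells, in wild type 1, wild type 2, knockout 1 and knockout 2 (log2 4.40 (SE 0.212, edgeR adjusted p = 2.07e-08)). The lowest endothelial library was above the highest stromal library for both genes. Lama4 differed by 3.26 (SE 0.204, edgeR adjusted p = 1.21e-07), Lama5, the alpha chain of another vascular laminin, by 2.33 (SE 0.321, edgeR adjusted p = 6.70e-05), and Lamb1 by 1.76 (SE 0.135, edgeR adjusted p = 5.92e-07). Lama3, an alpha chain of epithelial laminins, had 154 UMIs in endothelial cells and 0 in stromal cells. At 3 UMIs over the stromal libraries, 1.46 CPM, this makes Lama3 at least 13.3-fold higher in endothelial cells, a bound for counting error only. Itga3 had 168 UMIs in endothelial and 3 in stromal cells, a ratio of 14.5 (95% exact counting interval 4.89 to 71.2).

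In the other direction, Col8a1, a short-chain collagen, stood at 152, 71, 89.2 and 96.4 CPM in stromal and 2.63, 0.612, 0 and 0 CPM in endothelial cells (log2 -7.26 (SE 0.422, edgeR adjusted p = 7.65e-08)). Col1a1 stood at 601, 612, 596 and 429.6 CPM against 14.5, 1.84, 10.5 and 12.6 CPM (log2 -5.95 (SE 0.304, edgeR adjusted p = 3.21e-08)). Their stromal and endothelial values did not overlap. Col14a1 (-5.31) and Col12a1 (-4.16), which decorate collagen fibres, Col5a1 (-4.45), Col3a1 (-4.07) and Col1a2 (-3.98) moved the same way on the log2 scale. Col18a1, a basement membrane collagen of the multiplexin group, did not pass the test (201, 200.2, 218 and 206 CPM in endothelial and 214, 142, 153 and 294 CPM in stromal cells). The Pdgfrb level of the endothelial class belongs with these values, and its part in them was not tested. In marker-free cells Col1a1 stood at 0, 0, 0.948 and 0.730 CPM in endothelial cells. Each difference named here stayed past the threshold in marker-free cells, save those of Lama3 and Col12a1, which could not be tested, and Col4a1: it was higher in endothelial cells by 0.56 (SE 0.114, edgeR adjusted p = 0.00132) in all cells and by 0.18 (adjusted p = 0.266) in marker-free cells.

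Col4a1 and Col4a2 lie head to head on chromosome 8 and are transcribed in opposite directions. In the GENCODE vM21 annotation (GRCm38) Col4a1 spans chr8:11198423-11312826 on the minus strand and Col4a2 spans chr8:11312805-11449287 on the plus strand. Their 5′ ends overlap by 22 bases, the stretch from which both first exons start. It is shown because the 2 genes were read in different ratios in different cells. The sequence is given on the plus strand of GRCm38.p6 at chr8:11312805-11312826.

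Col4a1 and Col4a2 overlap: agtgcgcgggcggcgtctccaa

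Endothelial cells held a nearly constant ratio of the 2 genes, given as Col4a1 UMIs per Col4a2 UMI, at 1.43 and 1.48 in wild type libraries against 1.5 and 1.47 in knockout libraries. The stromal ratio was 1.81 and 1.98 in wild type libraries against 1.99 and 2.06 in knockout libraries, and the alpha cell ratio was 1.85 and 2.21 in wild type libraries against 1.95 and 2.39 in knockout libraries. The 1% of alpha cells with the most Col4a2 UMIs held 81.6% to 100% of them. In marker-free alpha cells the ratio was 5.8 and 3 in wild type libraries against 2.38 and 1.86 in knockout libraries. These marker-free ratios rested on 5 to 13 Col4a2 UMIs per library. Beta cells stood apart, with 23.3 and 18.9 in wild type libraries against 5.84 and 6.19 in knockout libraries. The beta cell ratio rested on 28 to 129 Col4a2 UMIs per library. Besides Col4a2, a GENCODE gene, Gm15418, overlaps Col4a1 on the other strand, and the strand setting of the counting is not given. Col4a2 was called higher in knockout beta cells, at 0.613 and 0.705 CPM in wild type libraries against 2.32 and 2.44 CPM in knockout libraries (log2 1.82 (SE 0.220, edgeR adjusted p = 0.00127)), while Col4a1 stood at 14.3 and 13.3 CPM in wild type libraries against 13.6 and 15.1 CPM in knockout libraries (log2 0.028 (SE 0.0916, edgeR adjusted p = 0.827)). The 1% of beta cells with the most Col4a2 UMIs held 100%, 100%, 87.6% and 83.7% of them, against 13.7%, 15.4%, 26.7% and 30.6% for Col4a1, in wild type 1, wild type 2, knockout 1 and knockout 2. In marker-free beta cells the ratio was 26.2 and 28 in wild type libraries against 16.5 and 19.2 in knockout libraries, the Col4a2 change was 0.33 (adjusted p = 0.403) and the Col4a1 change was -0.29 (adjusted p = 0.0454). The change of Col4a2 was 0.36 with no doublet removal (adjusted p = 0.190) and 0.47 in cells with at least 30% insulin (adjusted p = 0.223). Markers of endothelial cells summed to 11.9 and 15.3 CPM in wild type libraries against 29.3 and 17.5 CPM in knockout libraries in the beta class, with Pecam1 at 0.747 to 1.53 CPM. The difference between beta cells and the other classes in the ratio itself was not tested. Endothelial cells held 70.5% to 73.6% of all Col4a1 UMIs of a library and 79.9% to 84.9% of all Col4a2 UMIs, and beta cells held 6.20% to 13.7% and 1.01% to 2.43%.

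**Figure D2:**
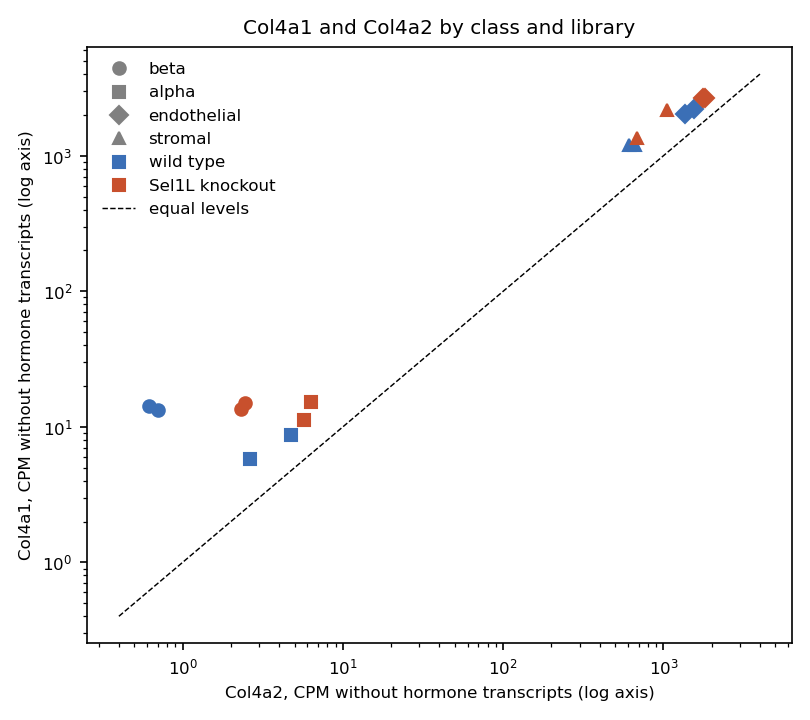
Col4a1 and Col4a2 in each class and library, with CPM without hormone transcripts on log axes for both genes. Endothelial, stromal and alpha points lie at 1.43 to 2.39 Col4a1 UMIs per Col4a2 UMI, while wild type beta cells lie at 23.3 and 18.9 Col4a1 UMIs per Col4a2 UMI and knockout beta cells at 5.84 and 6.19. In marker-free cells, not drawn, the ratio was 5.8, 3, 2.38 and 1.86 in alpha and 26.2, 28, 16.5 and 19.2 in beta cells, wild type libraries first.

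Beta and alpha cells differed in their integrins and in the few collagens they carried. Of 42 members tested, 12 were higher in beta cells and 20 higher in alpha cells. Over all 13776 genes tested 60.9% differed, 30.9% being higher in beta cells and 29.9% lower. The median over members was -0.575 on the log2 scale. The alpha classes held 333 to 1115 cells and endothelial markers at 43.2 and 23.3 CPM in wild type libraries against 46.3 and 67.2 CPM in knockout libraries, higher than in the beta class of the same library. In marker-free cells 13 members in place of 20 were higher in alpha cells.

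Col6a6 stood at 1.12, 1.03, 1.04 and 1.0 CPM in alpha cells, below every beta library (log2 beta minus alpha 4.78 (SE 0.257, edgeR adjusted p = 3.32e-05)). Col6a3, the alpha 3 chain of collagen VI, stood at 0.562, 0.469, 0.223 and 0.670 CPM in alpha cells. Its averaged difference of 4.64 (SE 0.655, edgeR adjusted p = 0.00137) came from wild type beta cells, since knockout beta cells were close to the alpha level at 0.792 and 1.28 CPM. Itga2, a collagen-binding subunit, was higher in beta cells by 3.78 (SE 0.325, edgeR adjusted p = 0.000182), Itgb8 by 2.79 (SE 0.168, edgeR adjusted p = 4.74e-05) and Itga6 by 1.78 (SE 0.101, edgeR adjusted p = 3.94e-05). Col11a2 (1.73), Itgb5 (1.62) and Itgav (0.98) were also higher in beta cells.

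Alpha cells held Col26a1 at 8.67, 7.78, 9.81 and 8.71 CPM against 0.109, 0.192, 0.162 and 0.0284 CPM in beta cells (log2 -6.18 (SE 0.338, edgeR adjusted p = 3.47e-05)). Every alpha library was above every beta library. Lama2 (-5.26, on 8 UMIs in beta cells), Itgb6 (-3.85) and Lama5 (-2.88) were higher in alpha cells on the log2 scale too. Col1a2, a fibrillar chain, was higher in alpha cells (log2 beta minus alpha -4.40 (SE 0.337, edgeR adjusted p = 0.000117)), with alpha levels of 7.23, 13.5, 10.8 and 10.7 CPM. Itgb1 was higher in alpha cells (log2 beta minus alpha -0.52 (SE 0.0531, edgeR adjusted p = 0.000365)). Of the named differences, Itga1 was lost in marker-free cells, where it turned to the beta side (-0.95 in all cells and 0.81, adjusted p = 0.132, in marker-free cells). Col4a2 (-1.95) fell short there as well (-0.76, adjusted p = 0.0795), and Col5a2 (-2.62) could not be tested. Without wild type library 1 the Col5a2 difference was -2.54 (adjusted p = 0.0657) and without knockout library 1 -1.99 (adjusted p = 0.119).

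In beta cells, knockout changed individual members by large factors in both directions. Of 83 members, 52 passed the filter on low counts, and 20 of these differed between genotypes: 11 were higher and 9 lower in knockout beta cells (edgeR's quasi-likelihood test on summed UMIs, adjusted p under 0.05). Over all 14893 genes tested 41.6% differed, 20.3% higher and 21.3% lower, so the share of members called was near that of all genes. The median change was 0.22 for the members and 0.0031 for all genes on the log2 scale. By role, 7 of 28 collagens tested rose and 4 fell, and 4 of 16 integrins rose and 3 fell. In marker-free beta cells 15 of the 20 stayed past the threshold.

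The largest change was the fall of Col6a3 (chr1:90765923-90843971, minus strand, GRCm38). It stood at 24.7 and 28.2 CPM in wild type libraries against 0.792 and 1.28 CPM in knockout libraries. Every knockout library was below every wild type library, with a log2 change of -4.76 (SE 0.195, edgeR adjusted p = 4.93e-05). Col6a3 UMIs were found in 19 and 21.7% of cells in wild type libraries against 1.33 and 2.11% in knockout libraries. After each beta cell was thinned to 2000 UMIs without hormones, the shares were 4.15%, 4.45%, 0.294% and 0.148% in the order wild type 1, wild type 2, knockout 1 and knockout 2. Alpha cells, taken as a class with little Col6a3, held shares of 0.628%, 0.318%, 0.395% and 0.601% before thinning. The knockout share after thinning, 0.294% and 0.148%, was within the alpha range of 0 to 0.301%. In wild type libraries beta cells held 85.3% and 91.9% of all Col6a3 UMIs, and in knockout libraries 9.76% and 13.9%, where stromal cells held 40.1% and 37.9%. The stromal level stood at 174 and 137 CPM in wild type libraries against 231 and 194 CPM in knockout libraries, with both knockout libraries above both wild type libraries and no call (log2 0.40, edgeR adjusted p = 0.888).

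Another collagen VI chain, Col6a4, had 25 and 35 UMIs in beta cells of wild type libraries against 7 and 0 UMIs in those of knockout libraries, or 0.547, 0.747, 0.126 and 0 CPM. The 0 allows a level of up to 0.0851 CPM by counting error. Its log2 change was -3.09 (SE 0.721, edgeR adjusted p = 0.0151). Col6a6 differed between the knockout libraries: it stood at 45.5 and 36.4 CPM in wild type libraries against 31.8 and 7.71 CPM in knockout libraries. Knockout library 1 lay close to wild type library 2, and knockout library 2 lay far below all others. The change did not pass the test (-1.03, edgeR adjusted p = 0.149), and without knockout library 1 it was -2.42 (adjusted p = 0.00293). Col6a6 UMIs were found in 40.4 and 35.2% of cells in wild type libraries against 45.6 and 12.9% in knockout libraries. After thinning the shares were 8.78% and 6.98% in wild type libraries against 6.17% and 2.45% in knockout libraries, both below the wild type shares.

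Col27a1, a fibrillar collagen chain (chr4:63214004-63334991, plus strand), stood at 13 and 13.3 CPM in wild type libraries against 2.54 and 3.29 CPM in knockout libraries. The groups did not overlap, and the log2 change was -2.22 (SE 0.143, edgeR adjusted p = 0.000183). Its UMIs were found in 12.6 and 13.1% of cells in wild type libraries against 4.78 and 5.17% in knockout libraries, and in 2.65%, 2.10%, 0.672% and 0.815% of cells after thinning, in the order given above. In alpha cells of the same libraries Col27a1 stood at 20.3 and 22.6 CPM in wild type libraries against 23.8 and 37 CPM in knockout libraries, all above the knockout beta level. Col16a1, a collagen associated with fibrils, also fell, at 0.788 and 1.32 CPM in wild type libraries against 0.414 and 0.567 CPM in knockout libraries (log2 -1.16 (SE 0.376, edgeR adjusted p = 0.0470)). The Col16a1 call was lost without wild type library 2 (-0.71), knockout library 1 (-0.91) or knockout library 2 (-1.36), and with DESeq2 and limma-voom.

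Of the integrins, Itga6 (chr2:71745616-71858416, plus strand), which pairs with Itgb1 or Itgb4 to bind laminin, rose. It stood at 57.6 and 61.9 CPM in wild type libraries against 126 and 127 CPM in knockout libraries, a log2 change of 1.06 (SE 0.0685, edgeR adjusted p = 0.000183). Both knockout libraries were above both wild type libraries. Its UMIs were spread over many cells: 44.8 and 48.4% of cells in wild type libraries against 86.8 and 86.5% in knockout libraries held at least 1, and after thinning the shares were 10.7%, 11.4%, 22.1% and 20.6%. The stromal class, which holds little Itga6, had 3.85%, 2.94%, 1.89% and 4.65% after thinning. The 1% of beta cells with the most Itga6 UMIs held 8.43%, 8.21%, 4.78% and 4.59% of them. A GENCODE gene, Gm17250, overlaps Itga6 on the other strand, and the strand setting of the counting is not given in the sources used here. Itga3, another laminin-binding subunit, stood at 14.4 and 12.4 CPM in wild type libraries against 12.3 and 12.3 CPM in knockout libraries and did not pass the test (log2 -0.15).

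Itgav (chr2:83724397-83806916, plus strand) fell. It stood at 99.9 and 112 CPM in wild type libraries against 58.5 and 67.1 CPM in knockout libraries, without overlap, for a log2 change of -0.78 (SE 0.0973, edgeR adjusted p = 0.00142). When sums were scaled by cell number its change was 0.14. Of its beta partners, Itgb8 was at 16.7 and 13 CPM in wild type libraries against 10.2 and 10.9 CPM in knockout libraries (log2 -0.52 (SE 0.127, edgeR adjusted p = 0.0178)) and Itgb5 at 27.7 and 27.6 CPM in wild type libraries against 33.6 and 33.4 CPM in knockout libraries (log2 0.25 (SE 0.0600, edgeR adjusted p = 0.0166)). Itgb8 was therefore lower and Itgb5 higher relative to other genes. Itgb3, a further partner, rose from 0.197 and 0.171 CPM to 0.450 and 0.482 CPM (log2 1.30 (SE 0.385, edgeR adjusted p = 0.0350)). The Itgb8 call was lost without knockout library 1 (-0.45) or 2 (-0.56), and so was that of Itgb5 (0.26 and 0.27), which DESeq2 did not call either (adjusted p = 0.0589). The Itgb3 call was lost without any 1 of the 4 libraries (1.38, 1.22, 1.37 and 1.27) and in marker-free cells (1.14, adjusted p = 0.0604). Scaled by cell number, Itgb8 was higher in the knockout by 0.40.

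Itgb1, the shared subunit, fell slightly relative to other genes, at 149.5 and 149 CPM in wild type libraries against 129 and 121 CPM in knockout libraries (log2 -0.28 (SE 0.0621, edgeR adjusted p = 0.0124)), but was higher by 0.63 when scaled by cell number. The 2 knockout libraries lay below the 2 wild type libraries. Without knockout library 1 the Itgb1 change was -0.31 (adjusted p = 0.0709) and without knockout library 2 -0.23 (adjusted p = 0.143). Itga9, a subunit that pairs with Itgb1, rose from 0.984 and 0.854 to 1.71 and 2.16 CPM (log2 1.04 (SE 0.234, edgeR adjusted p = 0.0135); 0.88 and not called without knockout library 2). Itgb3bp, which encodes a nuclear and centromere protein despite its symbol, fell from 49.6 and 47 to 39.6 and 34.8 CPM (log2 -0.40 (SE 0.0756, edgeR adjusted p = 0.00697)). Its change was -0.30 and not called without knockout library 2, and 0.51 when scaled by cell number.

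Among the laminins described here, Lamc1 (gamma 1) did not pass the test, at 6.76 and 8.03 CPM in wild type libraries against 8.37 and 8.79 CPM in knockout libraries (log2 0.19). Lamb1 was read at 0.284 and 0.790 CPM in wild type libraries against 1.17 and 1.19 CPM in knockout libraries and Lama5 at 0.0875 and 0.214 CPM in wild type libraries against 0.162 and 0.170 CPM in knockout libraries, neither past the threshold.

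The collagens that rose were all at 2.44 CPM or less in beta cells, and several were read in few cells. Col8a1 rose from 0.306 and 0.448 CPM to 1.53 and 1.47 CPM (log2 1.96 (SE 0.300, edgeR adjusted p = 0.00305)) and kept its call in marker-free cells at 1.32. Col19a1 rose from 0.219 and 0.107 to 0.918 and 0.511 CPM (log2 2.13 (SE 0.493, edgeR adjusted p = 0.0145); 2.14 in marker-free cells), and Col20a1 from 1.36 and 1.26 to 2.07 and 2.33 CPM (log2 0.72 (SE 0.196, edgeR adjusted p = 0.0263); 0.69 in marker-free cells). These 3 genes were called in marker-free cells too. The Col19a1 call was lost without wild type library 2 (1.72) or knockout library 1 (1.62), and that of Col20a1 without any 1 library (0.75, 0.68, 0.82 and 0.65) and with DESeq2.

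A further 3 collagens that rose were not called in marker-free beta cells or could not be tested there. Col15a1, a multiplexin collagen of basement membranes, stood at 0.153 and 0.192 CPM in wild type libraries against 0.738 and 1.30 CPM in knockout libraries (log2 2.49 (SE 0.440, edgeR adjusted p = 0.00527)) in all beta cells and changed by 0.93 (adjusted p = 0.270) in marker-free cells. Col18a1 stood at 0.328 and 0.363 CPM in wild type libraries against 0.666 and 0.879 CPM in knockout libraries (log2 1.11 (SE 0.331, edgeR adjusted p = 0.0355)) and changed by -0.64 (adjusted p = 0.322) in marker-free cells. Col5a2, a fibrillar chain, had 6 and 0 UMIs in beta cells of wild type libraries against 19 and 47 UMIs in those of knockout libraries (log2 3.54 (SE 1.05, edgeR adjusted p = 0.0357)). In marker-free cells Col5a2 had too few UMIs to test, with 6 and 0 in wild type libraries against 6 and 4 in knockout libraries. The 1% of beta cells with the most UMIs held 91.3% to 100% of the Col15a1 UMIs and all of those of Col18a1 and Col5a2. Endothelial markers in the beta class are given above, and stromal markers summed to 2.38 and 4.12 CPM in wild type libraries against 4.48 and 12.1 CPM in knockout libraries. The Col18a1 call was also lost without any 1 library (1.02, 1.20, 1.33 and 0.93) and the Col5a2 call without wild type library 2 (2.57) or knockout library 2 (2.34).

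**Figure D3:**
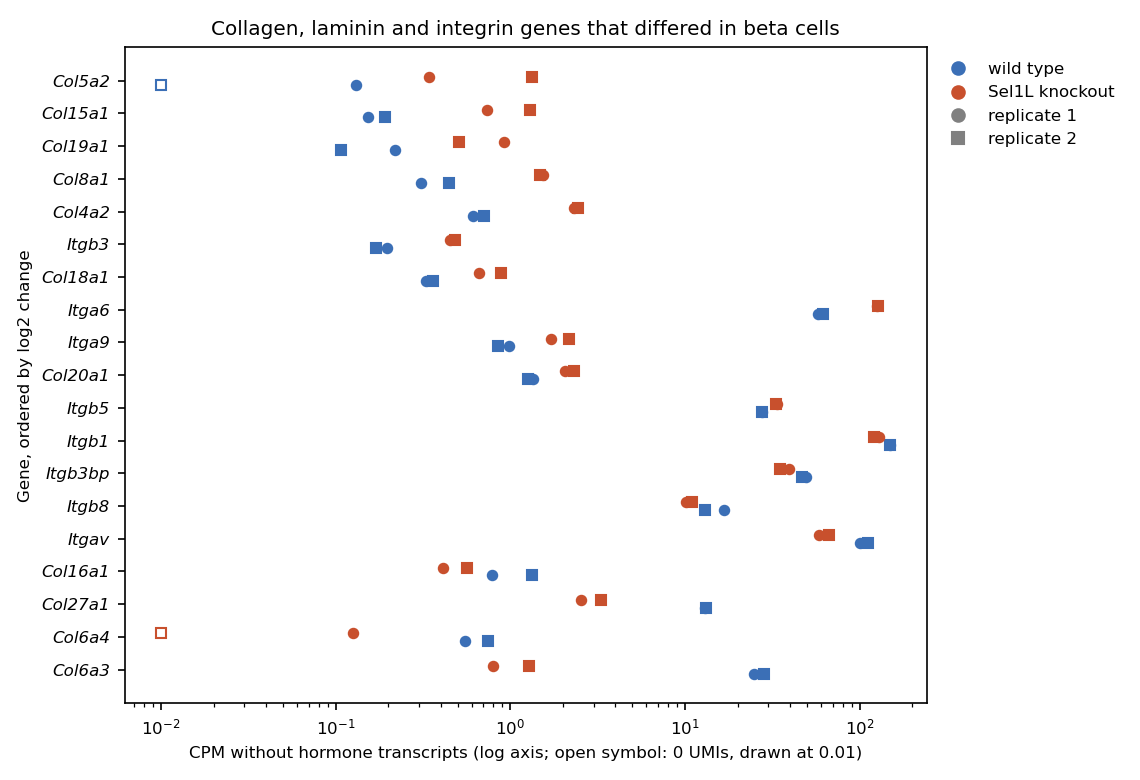
CPM without hormone transcripts (log axis) of 19 of the 20 members that differed between genotypes in beta cells, for wild type (blue) and Sel1L knockout (red) libraries 1 (circles) and 2 (squares), ordered by log2 change, with open symbols for 0 UMIs. Col6a3 lies at 24.7 and 28.2 CPM in wild type against 0.792 and 1.28 CPM in knockout libraries. No gene shown has overlapping genotypes, but the genes were chosen because they were called between these same libraries.

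**Figure D4:**
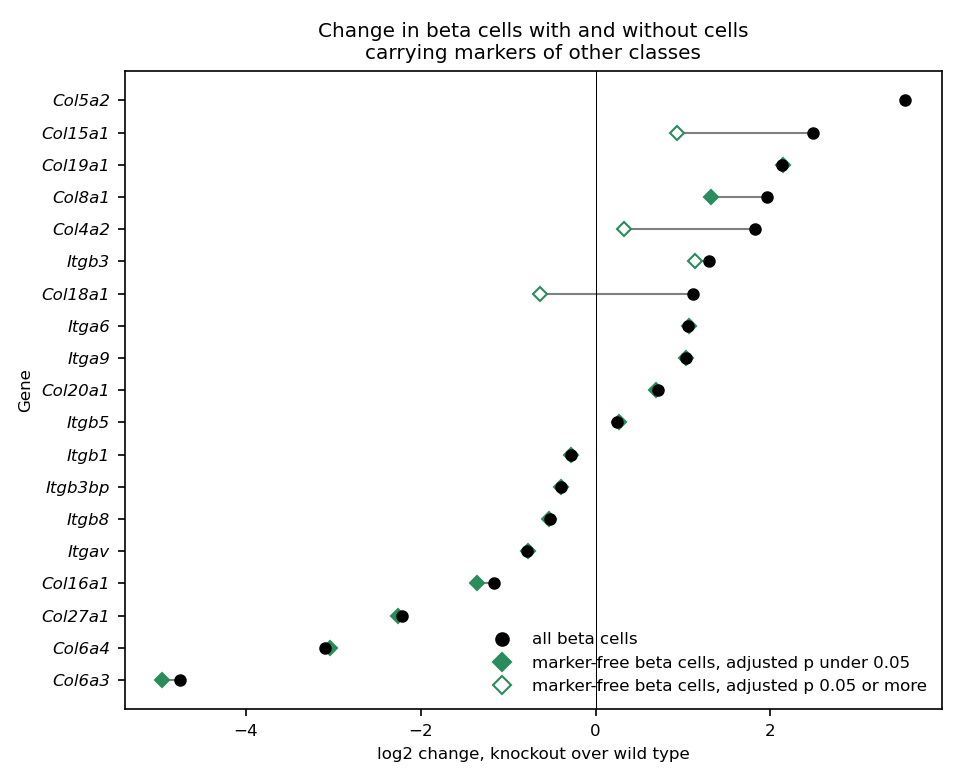
Log2 change in knockout beta cells of the same 19 members in all beta cells (black) and in marker-free beta cells (green diamonds, filled where the adjusted p is under 0.05), joined by a line. Col15a1, Col4a2 and Col18a1 move towards or past 0, Itgb3 is open, Col5a2 has no marker-free value, and the other 14 keep their call.

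Col6a3, Itgav and Col27a1 fell in beta cells. As described further on, Itgav and Col27a1 changed differently in alpha cells. For Col6a3 the difference from alpha cells rested on few alpha UMIs and was not called in marker-free cells. The 250 bases before the start of each gene in RefSeq (GRCm38.p6) are shown because these promoters belong to transcripts that fell in the same cells. Each is written 5′ to 3′ on the gene's strand in lower case, with capitals for the GC box GGGCGG on either strand. Col6a3 is at chr1:90843972-90844221 on the minus strand, Itgav at chr2:83724147-83724396 on the plus strand and Col27a1 at chr4:63215162-63215411 on the plus strand. None of these bases lies in an annotated exon. The Col27a1 window lies inside the GENCODE span of the gene, which starts at chr4:63214004, upstream of the RefSeq start used here.
Col6a3: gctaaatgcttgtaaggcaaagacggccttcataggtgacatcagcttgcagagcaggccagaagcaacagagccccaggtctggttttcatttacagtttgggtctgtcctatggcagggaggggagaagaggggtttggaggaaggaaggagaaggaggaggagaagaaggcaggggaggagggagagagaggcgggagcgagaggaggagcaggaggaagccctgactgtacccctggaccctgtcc
Itgav: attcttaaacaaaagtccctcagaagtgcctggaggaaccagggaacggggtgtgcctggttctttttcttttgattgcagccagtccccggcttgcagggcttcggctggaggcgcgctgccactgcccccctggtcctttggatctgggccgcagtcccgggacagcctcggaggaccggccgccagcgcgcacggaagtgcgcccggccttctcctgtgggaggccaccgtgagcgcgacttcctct
Col27a1: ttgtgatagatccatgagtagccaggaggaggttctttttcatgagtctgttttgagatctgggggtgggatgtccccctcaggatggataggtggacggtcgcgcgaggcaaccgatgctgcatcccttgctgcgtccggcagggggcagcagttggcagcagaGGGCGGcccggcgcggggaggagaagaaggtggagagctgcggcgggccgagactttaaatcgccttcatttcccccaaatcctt

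The promoters were searched on both strands for 5 motifs, and the share of all 32851 RefSeq promoters of the same length with each is given beside the count among the 58 members with an entry. The GC box GGGCGG was in 30 of 58 members and 32.7% of all promoters, and of the 3 shown Col27a1 held 1. The CCAAT box (CCAAT) was in 17 of 58 members and 33.8% of all promoters. The letters TGCTGA, part of the MAF recognition element, were in 11 of 58 and 16.1%. The ER stress response element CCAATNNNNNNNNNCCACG, which contains the CCAAT box, was in 0 of 58 and 0.113%, and the cyclic AMP response element TGACGTCA in 0 of 58 and 1.55%. The letters of the last 4 motifs were in none of the 3 windows shown.

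In alpha cells, where Ins1-Cre is not expected to act, fewer members changed. Of 34 members that passed the filter, 7 were higher and 3 lower in knockout libraries. Over all 12869 genes 15.4% differed, 6.19% higher and 9.19% lower. By family, 4 of 16 collagens rose, and 2 of 10 integrins rose and 1 fell. The median change was 0.271 on the log2 scale for the members and 0.0107 for all genes. DESeq2 gave an adjusted p for 4 of the 10 and called 2 of these, and in marker-free cells 6 could be tested and all 6 were called.

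Itga6 rose in alpha cells too, at 15.3 and 19.96 CPM in wild type libraries against 32.9 and 29.6 CPM in knockout libraries (log2 0.74 (SE 0.128, edgeR adjusted p = 0.00855); 0.61 and not called without knockout library 1). Itgb5 rose as well, at 6.83 and 7.78 CPM in wild type libraries against 11.4 and 11.4 CPM in knockout libraries (log2 0.54 (SE 0.162, edgeR adjusted p = 0.0495)). Neither gene had overlapping genotypes. The Itgb5 call was lost without any 1 library (0.45, 0.62, 0.50 and 0.55), with RLE size factors (adjusted p = 0.0513), with a mean of at least 20 counts (0.0502) and with hormone genes left out (0.0534). Itgb1 stood at 187 and 192 CPM in wild type libraries against 170.2 and 175 CPM in knockout libraries (log2 -0.25 (SE 0.0652, edgeR adjusted p = 0.0302)). It was lower relative to other genes, was not called without any 1 of the libraries (-0.26, -0.24, -0.26 and -0.26), and was higher by 0.53 when scaled by cell number. Itgb3bp (-0.50) and Itgb1bp1 (-0.40), which encodes a protein that binds the tail of Itgb1, fell relative to other genes and were higher by 0.28 and 0.38 when scaled by cell number. Their calls were lost without knockout library 2 (-0.51 and -0.30), and that of Itgb3bp also without knockout library 1 (-0.50).

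The collagen rises of alpha cells were in genes also read in vessel or stromal cells. Col8a1 stood at 0.562 and 0.562 CPM in wild type libraries against 4.46 and 4.02 CPM in knockout libraries (log2 2.79 (SE 0.383, edgeR adjusted p = 0.00442)). Col15a1 rose by 2.13 (SE 0.429, edgeR adjusted p = 0.0121), Col18a1 by 1.65 (SE 0.371, edgeR adjusted p = 0.0174) and Col5a2 by 1.99 (SE 0.506, edgeR adjusted p = 0.0273). In marker-free alpha cells all 4 had too few UMIs to test. Col8a1 stood there at 0.413 and 0.569 CPM in wild type libraries against 0.710 and 0.903 CPM in knockout libraries. In the same order, Col15a1 stood at 0.0826 and 0.190 against 0.552 and 0 CPM. Col18a1 stood at 0.413 and 0.284 against 0.394 and 0 CPM, and Col5a2 at 0.248 and 0.474 against 0 and 0.181 CPM. Endothelial markers in the alpha class are given above, and stromal markers summed to 6.67 and 16.5 CPM in wild type libraries against 10.2 and 22.6 CPM in knockout libraries. Col8a1 was not called without knockout library 1 (2.66), Col15a1 without knockout library 1 (2.46) or 2 (1.83), Col18a1 without wild type library 2 (1.43) or either knockout library (1.47 and 1.76), and Col5a2 without wild type library 2 (1.73) or knockout library 1 (1.04). Col4a1 did not pass the test in alpha cells, at 8.75 and 5.81 CPM in wild type libraries against 11.1 and 15.2 CPM in knockout libraries (log2 0.69, edgeR adjusted p = 0.0610). It was 1.03 (adjusted p = 0.00539) without wild type library 1 and -0.22 (adjusted p = 0.683) in marker-free cells.

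Beta and alpha cells of the same libraries were compared in 1 model, to test whether the genotype effect differed between them. Of 53 members tested, 1 effect was more positive in beta cells and 6 more negative. Over all 14659 genes 25.1% differed, 12% being more positive in beta cells and 13.1% more negative. The members' share of calls was thus below that of all genes.

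Col27a1 had the smallest p among members: its effect was -2.22 in beta and 0.33 in alpha cells, a difference of -2.55 (SE 0.147, edgeR adjusted p = 1.44e-08). For Itgav the effects were -0.78 and 0.23, with alpha levels of 30.4, 37.6, 41.2 and 45.6 CPM, and the difference was -1.02 (SE 0.0910, edgeR adjusted p = 1.19e-06). For both genes the difference stayed past the threshold in marker-free cells and without each library. The alpha cell change was not called on its own for Col27a1 or Itgav. Without knockout library 1 the alpha change of Col27a1 was 0.64 (adjusted p = 0.0446), and without wild type library 2 that of Itgav was 0.38 (adjusted p = 0.0422).

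Col6a3 differed between the classes by -4.19 (SE 0.744, edgeR adjusted p = 0.000673), but had 3 to 7 UMIs in an alpha library and was too low to be tested there alone. In marker-free cells its difference was -1.82 (adjusted p = 0.512). Col4a1 (-0.66 (SE 0.188, edgeR adjusted p = 0.0174)) was not called in marker-free cells (-0.082), with no doublet removal (-0.38), or without wild type library 2 (-0.43) or knockout library 2 (-0.54). Itga3 (-0.45 (SE 0.152, edgeR adjusted p = 0.0393)) was not called without any 1 library, where its difference ran from -0.52 to -0.40. Itga6, which rose in both classes, rose more in beta cells by 0.32 (SE 0.114, edgeR adjusted p = 0.0495). The Itga6 difference was not called without wild type library 2 (0.21), knockout library 1 (0.45) or knockout library 2 (0.26).

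**Figure D5:**
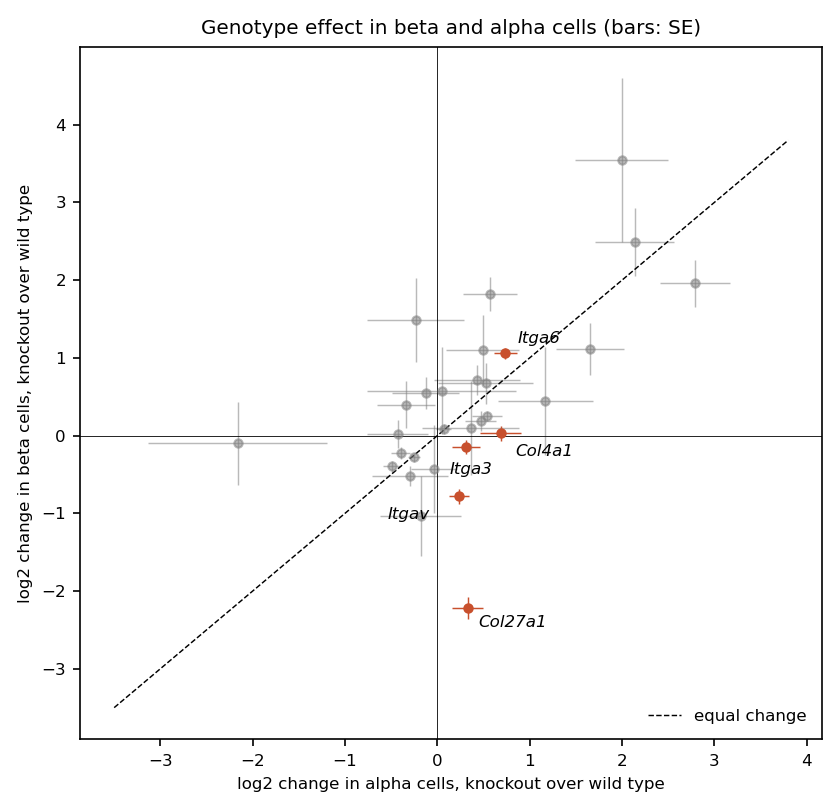
Log2 change in knockout alpha cells (x) against that in knockout beta cells (y) for 30 members tested in both, with bars for SE. Colour marks the 5 of these whose change differed between the classes; Col27a1 lies at -2.22 in beta and 0.33 in alpha cells, and Itga6 at 1.06 and 0.74.

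In endothelial cells of the knockout islets 1 of 35 members tested differed. Over all 9341 genes 1.2% differed, 0.749% higher and 0.45% lower, and the class held 152 to 172 cells a library. The member was Col15a1, at 308 and 298 CPM in wild type libraries against 427 and 520.2 CPM in knockout libraries, higher by 0.59 (SE 0.120, edgeR adjusted p = 0.0483). Its genotypes did not overlap. The call was lost without wild type library 1 (0.63), wild type library 2 (0.56) or knockout library 2 (0.44), with no doublet removal (0.60) and with a filter of 20 counts on average (0.59). At an unadjusted p under 0.05 there were 9 members. DESeq2 and limma-voom each called 2 members lower.

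The main basement membrane genes of endothelial cells did not pass the test: Col4a1 changed by 0.27 (edgeR adjusted p = 0.126) and Col4a2 by 0.24 (adjusted p = 0.191), with the levels given above. Without wild type library 1 the change of Col4a1 was 0.36 (adjusted p = 0.0303). Itgb1 stood at 721 and 751 CPM in wild type libraries against 590.5 and 558 CPM in knockout libraries (log2 -0.41, adjusted p = 0.0646), and DESeq2 gave an adjusted p of 0.0429. Itga6 stood at 200.2 and 178 CPM in wild type libraries against 229 and 236 CPM in knockout libraries (log2 0.24, adjusted p = 0.245). The 2 genotypes did not overlap for any of these 4 genes. With 2 libraries a genotype this is not a test, and the share of all genes without overlap was not counted. Pecam1, whose detection defines the endothelial class, stood at 743 and 849 CPM in wild type against 1048 and 1076 CPM in knockout endothelial cells. Its level depends in part on that rule, and its change was not called (log2 0.36, edgeR adjusted p = 0.0895).

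In stromal cells none of the 28 members tested differed by edgeR, with 6 at an unadjusted p under 0.05, and DESeq2 and limma-voom called 0. Over all 5882 genes 0.017% differed, 0% higher and 0.017% lower. The class held 30 to 56 cells a library. Col1a1 stood at 601 and 612 CPM in wild type libraries against 596 and 429.6 CPM in knockout libraries and Col3a1 at 652 and 743 CPM in wild type libraries against 693 and 844 CPM in knockout libraries. Col4a1 stood at 1206 and 1205 CPM in wild type libraries against 1353 and 2156 CPM in knockout libraries, with knockout library 2 apart from the rest (log2 0.48, edgeR adjusted p = 0.888). Itga1, a collagen-binding subunit, stood at 57.9 and 21.9 CPM in wild type libraries against 80.3 and 136 CPM in knockout libraries (log2 1.42, adjusted p = 0.888). Itga1 was past the threshold only where no filter on low counts was used (adjusted p = 0.0404).

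Genes that work with the members were counted from 5 wider lists. In beta cells 6 of 9 other basement membrane genes tested rose and 0 fell. Of 22 collagen processing genes 8 rose and 4 fell, and of 19 genes of the integrin adhesion complex 8 rose and 3 fell. Of 11 other matrix receptors 4 rose and 1 fell, and of 15 matrix proteases and inhibitors 4 rose and 1 fell. In marker-free beta cells 3 of the 6 basement membrane genes that rose were still called (Ntn4, Smoc1 and Fbln2), 2 were not (Nid1 and Sparc), and Fn1 could not be tested. There 11 of the 12 processing genes, all 11 adhesion complex genes, all 5 receptors and 3 of the 5 proteases and inhibitors were still called in their direction. The counts over all beta cells stand beside 20.3% of all genes called higher and 21.3% called lower. In alpha cells the counts were 1 higher and 0 lower of 9, 2 and 1 of 20, 3 and 0 of 18, 3 and 0 of 11, and 3 and 0 of 12 in the same order of lists. In endothelial cells 2 adhesion complex genes of 17 (Bcar1 and Parvb) and 1 protease of 15 (Adam15) were higher, and in stromal cells none was called.

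Among collagen processing genes, P4hb, the protein disulfide isomerase subunit of prolyl 4-hydroxylase, stood at 329.6 and 312 CPM in wild type libraries against 627 and 654 CPM in knockout libraries (log2 0.97 (SE 0.0688, edgeR adjusted p = 0.000227)). P3h4, a partner of collagen lysyl hydroxylases, was higher by 0.81 (SE 0.0803, edgeR adjusted p = 0.000683). Bmp1, the protease that trims procollagen, stood at 60.4 and 54.6 CPM in wild type libraries against 32.7 and 32.7 CPM in knockout libraries (log2 -0.84 (SE 0.0633, edgeR adjusted p = 0.000282)), and its change was 0.078 when scaled by cell number. Of the basement membrane list, Ntn4, a laminin-related netrin, stood at 1.20 and 1.24 CPM in wild type libraries against 6.37 and 6.04 CPM in knockout libraries (log2 2.32 (SE 0.153, edgeR adjusted p = 0.000197)), with no overlap between genotypes. Smoc1, a calcium-binding matrix protein, was higher by 1.0 (SE 0.141, edgeR adjusted p = 0.00222). Sparc, a collagen-binding protein of many matrix-producing cells, was higher by 1.04 (SE 0.221, edgeR adjusted p = 0.0105), but changed by -0.49 in marker-free cells, -0.13 with no doublet removal and 0.92 (not called) without knockout library 1.

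Of the adhesion complex, Vcl, which encodes vinculin and links integrins to actin, stood at 25.2 and 24.3 CPM in wild type libraries against 8.35 and 9.70 CPM in knockout libraries (log2 -1.49 (SE 0.0951, edgeR adjusted p = 0.000177)). Both knockout libraries were below both wild type libraries. Tns2 (tensin 2) was higher by 0.96 (SE 0.0680, edgeR adjusted p = 0.000227) and Tln2 (talin 2) by 1.0 (SE 0.106, edgeR adjusted p = 0.000853). Of other matrix receptors, the collagen receptor Ddr1 stood at 105 and 99.6 CPM in wild type libraries against 174 and 168 CPM in knockout libraries (log2 0.72 (SE 0.0598, edgeR adjusted p = 0.000396)). The hyaluronan receptor Cd44 stood at 71.2 and 42.1 CPM in wild type libraries against 164 and 172 CPM in knockout libraries (log2 1.55 (SE 0.206, edgeR adjusted p = 0.00184)), and the heparan sulfate proteoglycan Sdc4 was higher by 0.42 (SE 0.0653, edgeR adjusted p = 0.00322). Of proteases and inhibitors, Adam15 was higher by 0.73 (SE 0.133, edgeR adjusted p = 0.00580), Mmp15 by 1.14 (SE 0.224, edgeR adjusted p = 0.00783) and the inhibitor Timp3 by 1.77 (SE 0.470, edgeR adjusted p = 0.0238). Without knockout library 2 the changes of Adam15 (0.69) and Mmp15 (1.08) were not called. The Timp3 change was 0.26 (adjusted p = 0.553) in marker-free beta cells, and was not called without wild type library 1 (1.57) or knockout library 2 (0.98).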

How the data were processed

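The deposited tables hold raw UMI counts per gene and cell for 4 islet libraries, made by the authors with Cell Ranger 3.0.0 on mm10 and Seurat 2.3.4, per the submitters' processing notes; the strand setting of the counting is not given in the sources used here. The members and gene lists were chosen with earlier results of these data known. Doublet scores (scikit-learn 1.9.0, simulated doublets of the Scrublet kind, 2000 variable genes, 30 components) removed the highest-scoring 0.8% per 1000 cells of each library: 283, 273, 150 and 49 cells. Cells were placed in classes by the thresholds given in the text, and counts were summed per class and library, since cells are not replicates.

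Sums were tested with edgeR 4.0.16 (R 4.3.3): TMM scaling, filterByExpr, quasi-likelihood test, Benjamini-Hochberg adjustment over all genes tested, threshold 0.05, 2 libraries a genotype. Level contrasts and the difference of genotype effects had library as a block. The script was tested on simulated counts. DESeq2 1.42.0, limma-voom (limma 3.58.1), other scaling and filters, cells kept as doublets, marker-free cells, an insulin threshold of 30% and leaving out each library were the alternatives.

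Genes named with values were a fixed panel of members, in each comparison those called with the smallest p (for level contrasts the largest difference), the highest member of each family in each class, and up to 3 genes of each wider list. Other values, such as those of Col13a1, of Col6a2 and Col6a3 in stromal cells of Col26a1 and of Itgb5 in alpha cells, and the shares of cells shown, were chosen after they were seen. Shares of cells with a UMI leave out cells under 2000 non-hormone UMIs when thinned (8 to 27 beta cells a library). The values of 1 member are not reported here, though it counts in the totals. Symbols of all 83 members matched GENCODE vM21, where 16 members overlap another gene of the count tables on the other strand. Sequences are from RefSeq (GRCm38.p6), in which 58 members had a promoter entry. Tables and figures were made in Python 3.11.15 with pandas 2.3.3, SciPy 1.17.1, NumPy 2.4.6 and matplotlib 3.10.9.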

Additional observations from a re-analysis of the deposited data

Results flagged for a closer look

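The change with genotype differed between beta and alpha cells of the same libraries for 6 members described here, tested as an interaction in edgeR with adjustment over 14659 genes and given as beta minus alpha on the log2 scale. Col27a1 differed by -2.55, Itgav by -1.02 and Col6a3 by -4.19. Col4a1 differed by -0.66, Itga3 by -0.45 and Itga6 by 0.32. In marker-free cells the Col6a3 and Col4a1 differences were not called (-1.82 (adjusted p = 0.512) and -0.082 (adjusted p = 0.887)). The calls of Itga3 and Itga6 were lost when single libraries were left out, with differences from -0.52 to -0.40 for Itga3 and from 0.21 to 0.45 for Itga6. Outliers within a genotype could not be looked for, as each genotype has 2 libraries.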

How the results depend on the processing

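Of 1240 values for single genes under the alternatives, 1071 kept direction and side of the threshold, 123 lost their call, 27 gained one and 19 changed sign; the cause was not tested. Scaling by cell number, which moves the median gene, gave 38 members higher and 3 lower in beta cells, 23 and 0 in alpha cells and 25 higher in endothelial cells, and turned the sign of Itga3 (0.77), Itgav (0.14), Itgb1 (0.63), Itgb3bp (0.51), Itgb8 (0.40) and Bmp1 (0.078) in beta cells, Itgb1 (0.53), Itgb1bp1 (0.38) and Itgb3bp (0.28) in alpha cells and Itgb1 (0.31) in endothelial cells. Marker-free cells turned the sign of Col18a1 (-0.64), Col4a1 (-0.29) and Sparc (-0.49) in beta cells, Col4a1 (-0.22) in alpha cells and Itga1 between beta and alpha cells (0.81); they gave 3 members higher in alpha cells, 3 effects more positive in beta than alpha cells and 13 members higher in alpha than beta cells. Col4a1 in beta cells also turned with at least 30% insulin (-0.16), without wild type library 2 (-0.0063) and without knockout library 2 (-0.037), its range without single libraries being -0.037 to 0.12, and Sparc with no doublet removal (-0.13).

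DESeq2 gave 7 members higher in beta cells, 1 higher and 1 lower in alpha cells (6 of 10 had no adjusted p) and 2 lower in endothelial cells, and limma-voom 2 lower in endothelial cells and 2 effects more positive in beta than alpha cells (also 2 with RLE size factors). With at least 30% insulin 7 members were higher in beta cells. With no filter 11 members were higher in alpha cells, 5 higher and 2 lower in endothelial cells and 1 higher in stromal cells; a mean of at least 20 counts gave 0 higher in endothelial cells. No doublet removal gave 0 higher in endothelial cells and 0 effects more positive in beta cells, and leaving out hormone genes gave 1 lower in endothelial cells. Leaving out each library gave 5 to 8 members higher and 5 to 10 lower in beta cells, 1 to 8 and 0 to 4 in alpha cells, 0 to 4 and 0 to 1 in endothelial cells and 0 to 3 effects more positive in beta cells; where this left 1 library of a genotype, its spread was taken from the other. Deviations of same-numbered libraries correlated at 0.0224 in beta, -0.0779 in alpha, -0.061 in endothelial and 0.235 in stromal cells, and the numbers are not stated to pair them. With the replicate block 12 members were higher and 10 lower in beta cells, 10 and 3 in alpha cells, 0 and 0 in endothelial cells and 0 and 0 in stromal cells, Col15a1 in endothelial cells and Itgb3 in beta cells losing their call, and Col6a6 in beta cells (-1.29 (adjusted p = 0.00424)) and Col27a1 (0.34 (adjusted p = 0.0446)), Col4a1 (0.68 (adjusted p = 0.0216)) and Lamc1 (0.47 (adjusted p = 0.0493)) in alpha cells gaining one; over all genes the stromal calls went from 1 to 22. Depth limits the stromal class most, where a count of 0 allows up to 3.82 to 10.9 CPM a library.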
